A study of Homo sapiens with 24 samples.

Results

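The open chromatin of TMPRSS2 was followed in 24 FAIRE-seq libraries of a human prostate cancer cell line, over an 88-kb window of chromosome 21 (hg19, chr21:42832000-42920000) that holds the gene and the DNA upstream of it. Every peak of the 24 deposited lists that overlapped the window was taken, which gave 317 of 4663440 peaks. Merging overlapping peaks gave 30 sites. TMPRSS2 lies on the minus strand, so upstream is towards higher coordinates, and distances below are counted in kb from a rounded gene start at 42880000, positive upstream and negative inside the gene. The gene end was rounded to 42836000 and the position of the known upstream enhancer to 42893000. Exons and introns were not analysed here, because no annotation of the hg19 build was used.

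FAIRE (formaldehyde-assisted isolation of regulatory elements) recovers DNA that is poorly cross-linked to protein, mostly DNA free of nucleosomes, so that its peaks mark open chromatin. TMPRSS2 encodes a membrane-anchored serine protease of luminal prostate cells and is among the best known targets of the androgen receptor. Androgen brings the receptor to an enhancer upstream of the gene, which contacts the promoter. In many prostate tumours a rearrangement places an ETS gene such as ERG under the same regulatory DNA.

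LNCaP, an androgen-sensitive line from a prostate cancer metastasis, is called parental here. Long-term exposure of LNCaP to drugs against the androgen receptor had given RES-A, which resists enzalutamide (ENZ), an antagonist of that receptor. Both sublines were cultured for 3 days with 5% charcoal-stripped serum, which is poor in androgens, and RES-A alone had 10 µM ENZ during those days. An 18-h treatment followed, with the solvent DMSO, with dihydrotestosterone at 10 nM (DHT, a potent natural androgen), with ENZ at 10 µM or with both agents (DHT+ENZ). Each of the 8 groups had 3 libraries. RES-A is 1 resistant line, so a difference between the sublines is a difference between 2 lines, and the earlier ENZ of RES-A cannot be told apart from it. Whether that ENZ was removed before the 18-h treatment is not given in the sources used here, so RES-A under DMSO and DHT may still have held some.

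Read totals were not used here. The genome-wide background of a library, recovered from its peak list in reads per base, ranks the libraries by depth. It was 0.41 in LNCaP ENZ replicate 1 and 0.74 in LNCaP DHT replicate 1, whose lists held 72950 and 81865 peaks. The other 22 libraries had backgrounds up to 5.99 and lists of 128800 to 274578 peaks. Several, not all, of the values that rest on these shallow libraries are given with and without them.

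The window was rich in peaks. It held more peaks than 96.7% of the 32474 windows of 88 kb with any peak, whose median was 136. Of the 30 sites, 10 had a peak in 20 or more libraries and together gave 241 of the peaks. The other 20 were seen in fewer libraries, 8 of them in a single one.

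The recurrent sites fell into a downstream flank, the gene body, the promoter and a series of upstream sites. The promoter site (chr21:42879981-42880306) and a site 6.9 kb inside the gene (chr21:42872767-42873361) had a peak in all 24 libraries, as did a site 18.4 kb upstream (chr21:42898240-42898870). At the promoter the middle of the summit positions spanned an interquartile range of only 25.5 bp. The enhancer position lay between a pair of sites 12.7 kb (chr21:42892454-42892882) and 13.8 kb (chr21:42893480-42893966) upstream, each called in 23 libraries and absent from the shallowest list, LNCaP ENZ replicate 1. The 12.7-kb site lay 118 bp from that position and the 13.8-kb site 480 bp from it, so both are described as the enhancer pair. Farther upstream, sites at 22.5 kb (chr21:42902145-42902658) and 28.5 kb (chr21:42908055-42908658) were also called in 23 libraries. Past the gene end a site at -47.3 kb (chr21:42832514-42832936) had a peak in 23 libraries, and inside the gene the sites at -7.5 kb (chr21:42872213-42872762) and -1.3 kb (chr21:42878487-42878888) had one in 22 and 21.

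**Figure D1:**
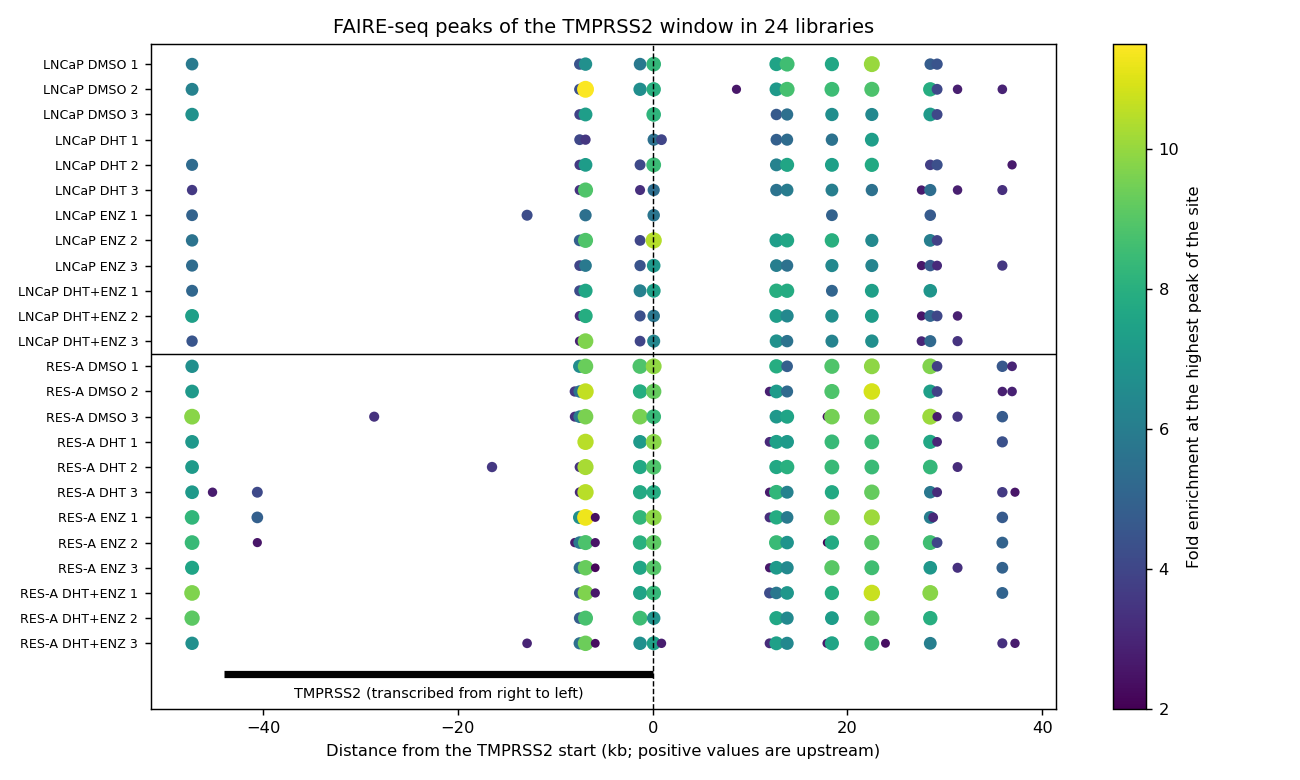
Each point is a site with a peak in that library (rows, LNCaP above the line and RES-A below), placed by its distance in kb from the TMPRSS2 start, with size and colour giving the fold enrichment at its highest peak. The columns of points at -6.9, 0.1 and 18.4 kb are filled in all 24 libraries, and the row of LNCaP ENZ replicate 1 is the thinnest, with 6 peaks.

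RES-A libraries held more peaks in the window than parental ones. The parental libraries had 6 to 14 peaks (11.1 ± 2.31, SD, n = 12) and the RES-A libraries 11 to 21 (15.3 ± 2.77, n = 12). The ranges overlapped, and the means differed by 4.25 peaks (exact two-sided permutation test within treatments, added after seeing the data, p = 0.000988 over 160000 arrangements). Per 100000 peaks of the list the means were 6.20 and 7.83 (exact permutation p = 0.0116). Without the 2 shallow libraries the difference was 3.43 peaks (exact permutation p = 0.0039). In each treatment RES-A had the higher mean, at 15.3 peaks against 11.7 under DMSO and under DHT+ENZ alike, 14.3 against 11.0 under DHT, and 16.3 against 10.0 for libraries given ENZ. Of the 30 sites, 12 were called in RES-A alone and 2 in LNCaP alone, beside 25.7% and 38.4% of the 744442 merged regions of the genome. Of the 8 sites called in 1 library, 7 were of RES-A, beside 40.0% of all regions called in 1 library.

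The promoter was open in every library, and its fold enrichment did not move detectably with treatment. Fold enrichment is the pileup (overlapping fragments at the summit) over the pileup the peak caller expected there. In LNCaP it was 8.29, 7.99 and 8.19 with DMSO and 5.47, 8.48 and 5.37 with DHT. With ENZ it was 5.69, 10.4 and 7.03, and with DHT+ENZ 7.36, 5.72 and 6.35. The parental groups overlapped, with the lowest and the highest value of the promoter both among them. In RES-A the promoter read 9.91, 9.26 and 8.37 with DMSO and 9.83, 8.86 and 7.84 with DHT. The ENZ libraries of RES-A had 9.83, 9.11 and 8.94, and those given both agents 8.35, 6.89 and 7.42. RES-A groups thus lay close together, with DHT+ENZ lowest.

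Fold changes between groups were tested with limma on quantile-normalized log2 fold enrichment, with Benjamini-Hochberg adjustment over all regions of the genome in the fit and a threshold of 0.05. At the promoter the log2 difference of DHT from DMSO was 0.02 (95% interval -0.27 to 0.31, limma adjusted p = 0.964) in LNCaP and -0.04 (-0.33 to 0.26, adjusted p = 0.975) in RES-A. RES-A and LNCaP differed there by -0.05 over the treatments (limma adjusted p = 0.658). 

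Of the 29296 regions with a peak in every library, 3 lay in the window, and none passed the threshold for DHT against DMSO, for DHT+ENZ against DHT or between the sublines. At an unadjusted p under 0.05 limma had 1 of 3, the 18.4-kb site, lower with DHT+ENZ than with DHT in LNCaP (-0.30, adjusted p = 0.316). Across the genome 2.33% of these regions changed with DHT in LNCaP and 4.99% in RES-A, 0.225% and 0.0819% differed between DHT+ENZ and DHT, and 35.5% differed between the sublines.

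On the fold scale no change was detected at the enhancer pair either. The fold enrichments listed are before normalization, and the tests below are after it. At 12.7 kb LNCaP had 7.51, 7.11 and 4.64 with DMSO and 4.89, 6.17 and 5.62 with DHT. RES-A had 7.88, 7.18 and 7.05 with DMSO and 7.36, 7.69 and 8.25 with DHT, and in both sublines the groups overlapped. At 13.8 kb LNCaP had 8.60, 8.71 and 5.48 with DMSO against 5.33, 7.58 and 5.95 with DHT. RES-A had 4.83, 5.24 and 7.54 with DMSO against 7.13, 8.03 and 6.21 with DHT, where only DMSO replicate 3 reached into the DHT range.

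Because one list lacks the pair, these sites were tested over the 307955 regions with a peak in at least 3 libraries, with an uncalled region set to the lowest fold enrichment of that library. With DHT the 12.7-kb site differed from DMSO by 0.19 (-0.60 to 0.99, limma adjusted p = 0.969) in LNCaP and 0.11 (-0.68 to 0.90, adjusted p = 1) in RES-A. The 13.8-kb site differed by 0.10 and by 0.37 (limma adjusted p = 0.969 and 0.871). None of the 20 window regions passed for DHT or for DHT+ENZ against DHT. Beside that stand 1.28% and 4.02% of all regions for DHT in LNCaP and RES-A, and 0.55% and 1.44% for DHT+ENZ against DHT. At an unadjusted p under 0.05, 2 window regions were lower with DHT in LNCaP and 3 in RES-A.

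**Figure D2:**
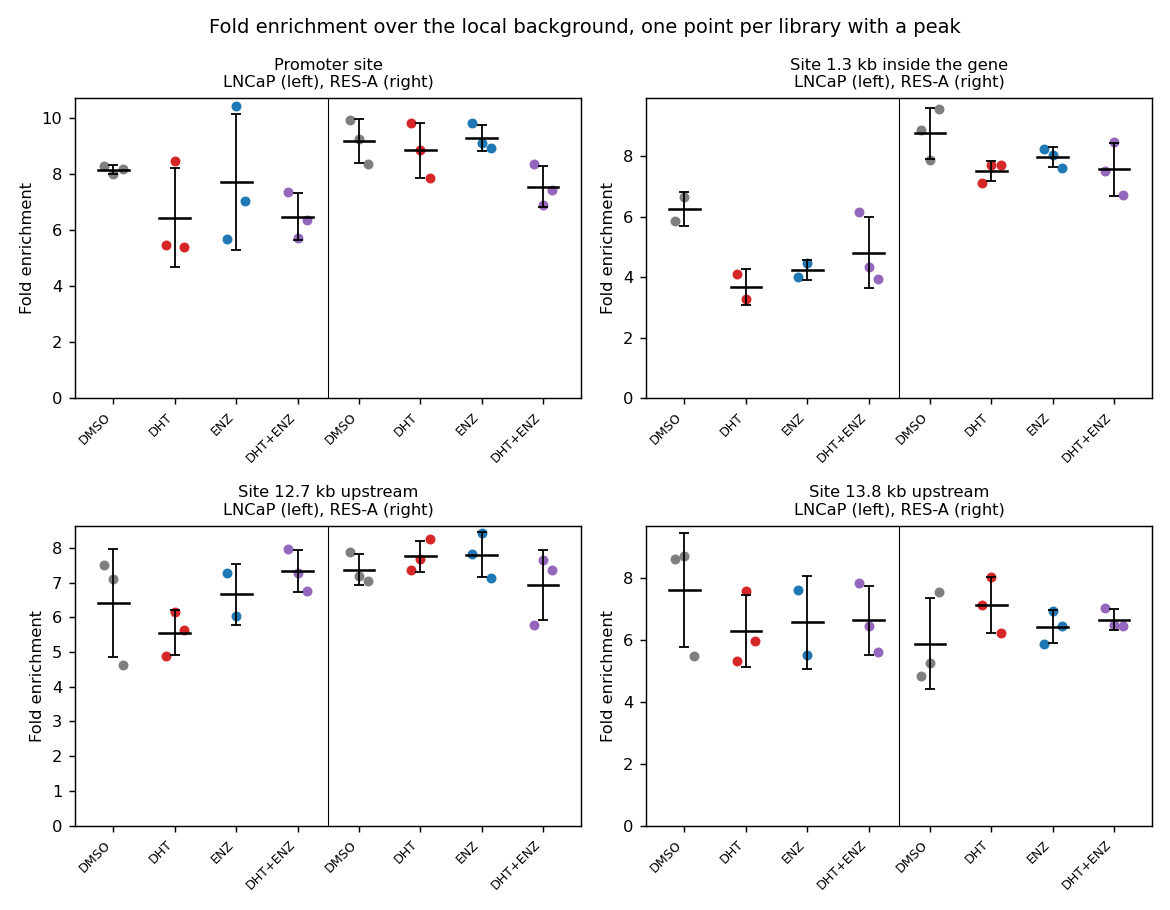
Fold enrichment over the local background (vertical axis, no unit) at the promoter, at -1.3 kb and at the enhancer pair, with 1 point per library that has a peak, and the group mean and SD as bars. The promoter points of both sublines lie between 5.37 and 10.4 in all treatments, and only the -1.3-kb panel separates the sublines.

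By pileup, the enhancer pair read higher with DHT in both sublines, but in LNCaP whether it passed the threshold depended on the fit. Pileup was examined after the data were seen, because fold enrichment divides it by a background that can itself move. It was quantile-normalized over 23 libraries, without LNCaP ENZ replicate 1, and tested over the 44967 regions with a peak in each, 6 of them in the window.

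At 12.7 kb the normalized pileup in LNCaP was 36.4, 34.9 and 27.0 reads with DMSO and 52.9, 51.4 and 47.0 with DHT. Every DHT library lay above every DMSO library. The difference was 0.63 on the log2 scale (SE 0.153, 1.55-fold, 95% interval 1.25 to 1.93, limma adjusted p = 0.00882). Without both shallow libraries it was 0.61 (limma adjusted p = 0.04). In RES-A the pileup was 40.4, 36.7 and 32.4 with DMSO and 50.5, 60.5 and 62.0 with DHT, again without overlap. That was a 1.58-fold rise (1.27 to 1.97, limma adjusted p = 0.00327).

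At 13.8 kb the rise in RES-A was the largest of these 6 regions. Its normalized pileup was 34.9, 35.9 and 48.1 with DMSO and 68.9, 85.0 and 63.6 with DHT. The groups stood apart, by 1.84-fold (1.43 to 2.36, limma adjusted p = 0.000846). In LNCaP the values were 55.9, 56.5 and 42.5 with DMSO and 73.3, 82.6 and 65.8 with DHT. This 1.44-fold difference (log2 interval 0.16 to 0.88) sat at the threshold, with a limma adjusted p of 0.0499, and left it in 16 of the 23 fits that each left out 1 library.

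The 18.4-kb site rose with DHT in RES-A, from 67.7 to 70.8 reads with DMSO to 88.6 to 99.8 (1.35-fold, limma adjusted p = 0.021). It did not pass without DMSO replicate 1, 2 or 3 or DHT replicate 1 or 2 of RES-A (0.38 to 0.44, limma adjusted p = 0.0515 to 0.0925). In LNCaP it read 57.0 to 61.6 with DMSO and 69.4 to 81.7 with DHT, and the difference of 1.29-fold had a limma adjusted p of 0.0551. At 22.5 kb the differences were 0.28 in LNCaP and 0.22 in RES-A (limma adjusted p = 0.272 and 0.46). The promoter differed by -0.18 and -0.19 (limma adjusted p = 0.577 and 0.628) and the -6.9-kb site by -0.11 and 0.11 (0.779 and 0.845), neither past the threshold.

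In all, 2 of 6 window regions passed as higher with DHT in LNCaP and 3 of 6 in RES-A, beside 6.9% and 9.94% of all 44967 regions. In the flanks, taken as 1 Mb on either side, 3 and 4 of 34 regions rose, and the median difference there was -0.05 in LNCaP and -0.07 in RES-A. The response of the sublines to DHT was not shown to differ, with an interaction of 0.03 at 12.7 kb (-0.42 to 0.47) and 0.35 at 13.8 kb (-0.16 to 0.87, limma adjusted p = 0.584), where 0.385% of all regions passed. The RES-A rises at the pair passed the threshold in each of the 23 fits that left out 1 library, with median centring and in the libraries of the contrast alone. They did not pass over the 307955 regions with uncalled ones set to the lowest pileup of the library (0.74 and 0.95, limma adjusted p = 0.222 and 0.171), a fit that holds LNCaP ENZ replicate 1, which lacks both sites. The LNCaP rise at 12.7 kb did not pass without LNCaP DMSO replicate 3 (0.49, limma adjusted p = 0.058) or in a fit of the 6 libraries of the contrast (0.49, 0.157).

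**Figure D3:**
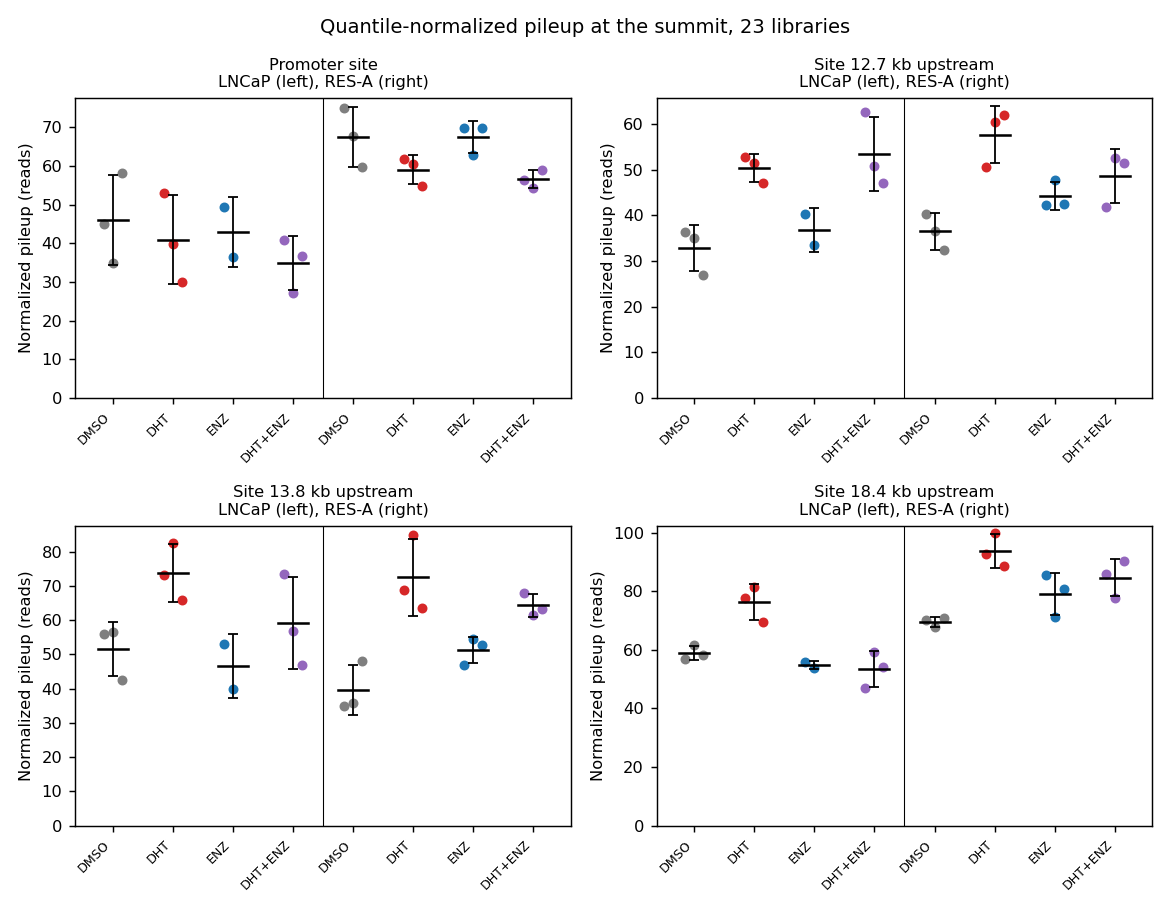
Quantile-normalized pileup at the summit (vertical axis, reads) in 23 libraries for the promoter and the sites 12.7, 13.8 and 18.4 kb upstream, with 1 point per library, and the group mean and SD as bars. At 12.7 and 13.8 kb each DHT point lies above each DMSO point in both sublines, while at the promoter the DHT and DMSO points overlap.

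For ENZ alone none of these 6 regions passed. By pileup over 23 libraries, limma called 0 of 44967 regions (0.0%) for ENZ against DMSO in either subline, and at an unadjusted p under 0.05 the window had 1 lower region in LNCaP and 1 higher in RES-A. Over the 307955 regions by pileup, limma called 107 higher and 92 lower with ENZ in RES-A. In the window that fit called a site 5.9 kb inside the gene (chr21:42873965-42874175), which had a peak in the 3 ENZ and in 2 DHT+ENZ libraries of RES-A and in no other. It entered the fit through those libraries alone and all its other values were set to the lowest of the library, so the call is no support. The pair read 42.3, 47.7 and 42.5 at 12.7 kb and 47.0, 54.4 and 52.6 at 13.8 kb in RES-A with ENZ, between its DMSO and DHT means.

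Addition of ENZ to DHT in LNCaP was read site by site, and no test compared the sites. The 18.4-kb site fell to 46.9 to 59.4 reads, below all DHT libraries (0.699-fold of DHT, limma adjusted p = 0.0228). It was the only 1 of 6 window regions that passed as lower, beside 2.44% of all regions. Without both shallow libraries the site was 0.715-fold of DHT (-0.48), about as low, with a limma adjusted p of 0.102. The call was also lost without LNCaP DHT replicate 2 (-0.47, limma adjusted p = 0.0523), DHT+ENZ replicate 1 (-0.43, 0.0943) or DHT+ENZ replicate 3 (-0.53, 0.0602), with median centring (-0.47, 0.0759) and in the libraries of the contrast alone (-0.41, 0.261). The 13.8-kb site read 73.6, 56.9 and 47.0 (-0.34 from DHT, limma adjusted p = 0.287). At 22.5 kb the difference from DHT was -0.32 (limma adjusted p = 0.291), and -0.12 without both shallow libraries. At -6.9 kb it was 0.48 (limma adjusted p = 0.238), and 0.13 without them. The 12.7-kb site read 62.7, 50.7 and 47.0 (0.08 from DHT, limma adjusted p = 0.829). Its difference from DMSO was 0.71 (limma adjusted p = 0.148, where none of the 44967 regions passed).

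In RES-A none of the 6 regions passed between DHT+ENZ and DHT by pileup, beside 2.46% of regions changed genome-wide. None of these 6 regions had an unadjusted p under 0.05 in this contrast. The log2 differences from DHT ran from -0.25 at 12.7 kb to 0.11 at 22.5 kb. At 12.7 kb the mean was 57.7 reads with DHT, 48.6 with DHT+ENZ and 36.5 with DMSO. The interval of the difference from DHT there was -0.56 to 0.07, so a partial loss of the DHT rise was neither shown nor excluded. The 13.8-kb site read 67.9, 61.6 and 63.4, still above the DMSO libraries (1.64-fold, limma adjusted p = 0.0221), as 2.65% of regions did. This call held in 18 of the 23 fits that each left out 1 library (limma adjusted p up to 0.13). At 12.7 kb the pileup read 41.8, 52.6 and 51.4 (1.33-fold of DMSO, limma adjusted p = 0.215). The difference between the sublines in the effect of adding ENZ did not pass at any of the 44967 regions (0.0%), with 0.37 and an unadjusted limma p of 0.0513 at 18.4 kb.

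The background under the upstream sites was also higher with DHT in RES-A. The background that the peak caller had expected at a peak was recovered from pileup and fold enrichment and divided by the genome-wide background of the library, so that 1 means no local excess. At 13.8 kb in RES-A this ratio was 2.22, 2.06 and 2.26 with DMSO and 3.86, 4.25 and 3.56 with DHT. ENZ gave 2.94, 2.74 and 2.93, and DHT+ENZ 4.04, 3.18 and 2.74. The DHT libraries were thus above all DMSO and ENZ libraries. At 12.7 kb the ratio rose from 1.50, 1.46 and 1.46 to 2.50, 2.96 and 2.53.

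The 18.4-kb and 22.5-kb sites shared this rise, from means of 2.67 and 2.47 to 4.51 and 3.71. The log2 ratios were tested over 23 libraries without normalization between libraries, so a shift of a whole library stays in them. The differences were 0.85 at 12.7 kb, 0.83 at 13.8 kb, 0.75 at 18.4 kb and 0.58 at 22.5 kb (limma adjusted p = 0.00142 to 0.00491). The promoter (-0.10, limma adjusted p = 0.844) and the -6.9-kb site (0.11, 0.798) did not pass. So 4 of 6 window regions rose, all of them upstream, beside 12.2% of all regions and 6 of 34 in the flanks. These sites are neighbours, and the span over which the background was taken is not known. Their backgrounds may share reads, so the 4 rises are not separate observations. Under ENZ alone 3 upstream regions had an unadjusted p under 0.05 by this ratio in RES-A, each with a limma adjusted p of 1.

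In LNCaP no window region passed for DHT by this ratio, beside 1.28% of regions higher and 16.7% lower, and 1 had an unadjusted p under 0.05. At 13.8 kb the ratio was 1.87, 1.98 and 1.82 with DMSO and 2.97, 2.45 and 1.80 with DHT, the highest from the shallow DHT library. The difference in response between the sublines did not pass either (0.52 at 13.8 kb, limma adjusted p = 0.156), beside 7.93% of all regions that did. Since fold enrichment is the pileup over this background, a site at which both rise can keep its fold enrichment. The mean genome-wide background was 3.24 with DMSO and 2.32 with DHT in RES-A, and 3.12 and 3.92 in LNCaP. The part of this depth difference in the ratio was not tested.

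**Figure D4:**
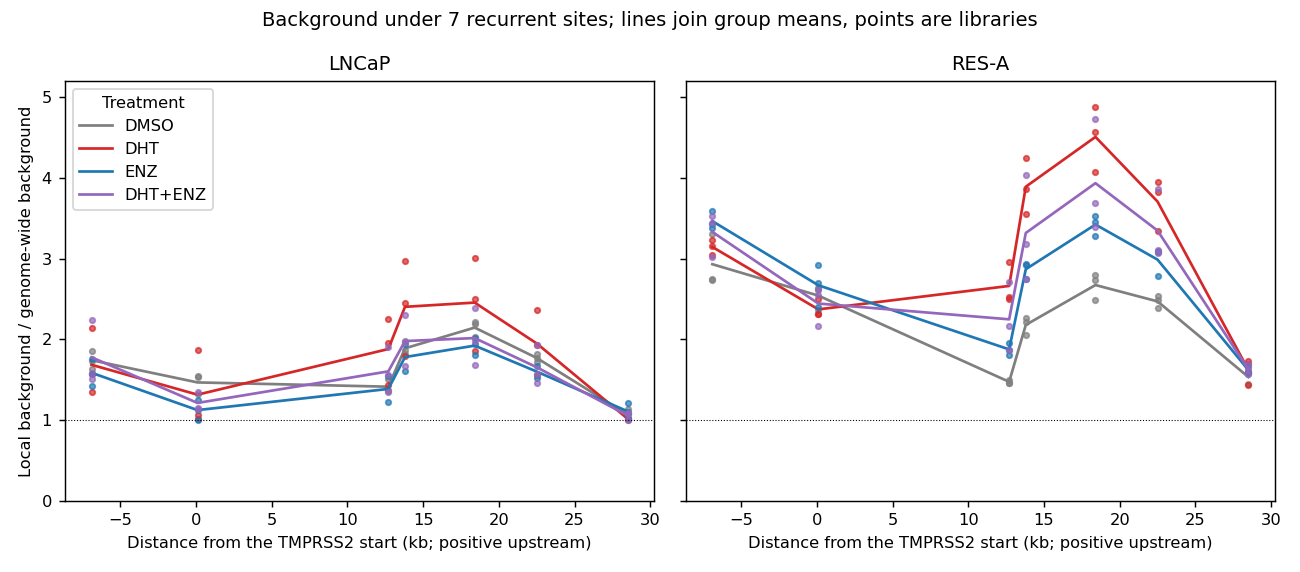
Local background divided by the genome-wide background (vertical axis, 1 at the dotted line) against the distance from the TMPRSS2 start in kb, for 7 recurrent sites, with points for libraries and lines joining group means. In RES-A the DHT line reaches 4.51 at 18.4 kb against 2.67 for DMSO, while at the promoter the RES-A group means lie between 2.37 and 2.67.

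**Figure D5:**
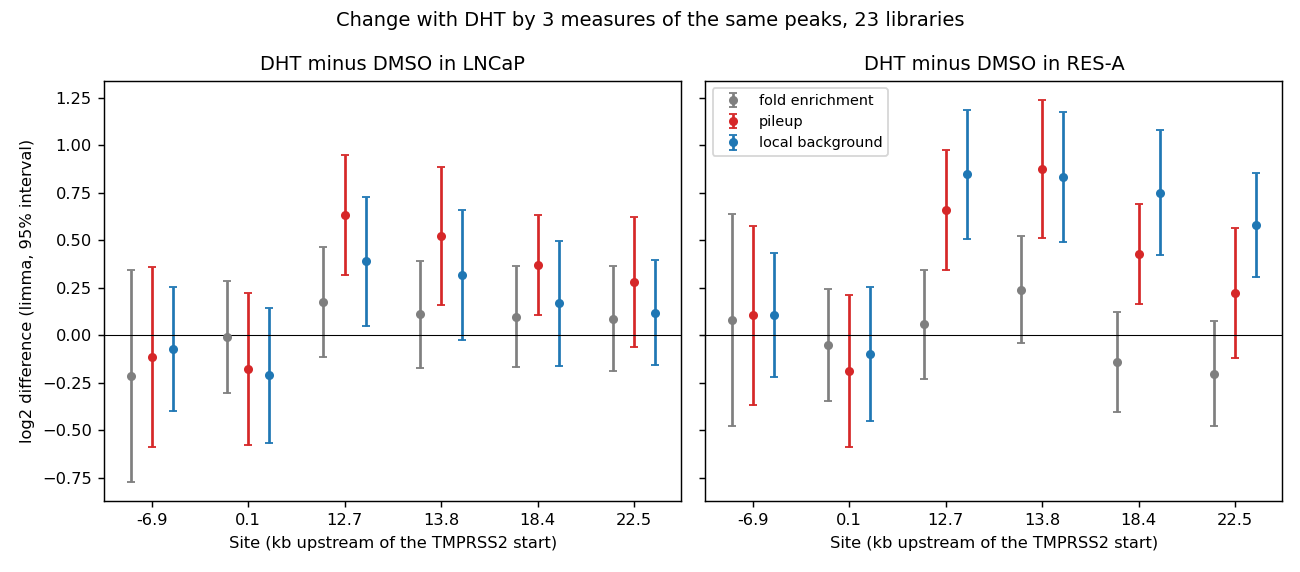
Log2 difference of DHT from DMSO with 95% intervals at the 6 window regions of the 23-library fits, by fold enrichment, pileup and local background, for LNCaP (left) and RES-A (right). In RES-A pileup and local background lie above 0 at 12.7, 13.8 and 18.4 kb, and all 3 measures have intervals that include 0 at the promoter.

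The sublines differed most plainly at a site 1.3 kb inside the gene. In RES-A it had fold enrichments of 8.86, 7.88 and 9.56 with DMSO and 7.12, 7.70 and 7.72 with DHT. Its ENZ libraries had 8.26, 8.04 and 7.61, and those given both agents 7.50, 8.50 and 6.73. In LNCaP it was called in 9 of 12 libraries, at 3.27 to 6.65. No parental value reached the RES-A range. With the 3 libraries that lack it set to their lowest value, the log2 difference over the treatments was 0.97 (SE 0.238, limma adjusted p = 0.00266), and 0.69 without the 2 shallow libraries (0.0121).

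A pair of weaker upstream sites also stood higher in RES-A. The site at chr21:42891824-42892163, 837 bp from the enhancer position on the gene side, was called in 7 RES-A libraries at 2.61 to 4.22 and in no parental one. The site 35.9 kb upstream (chr21:42915378-42916071) was called in 10 RES-A libraries at up to 5.03 and in 3 parental ones at 2.91 to 3.49 (0.90, limma adjusted p = 0.00434, with 9 parental values set to the lowest of the library). Of the 20 window regions limma called 3 higher in RES-A, beside 20.8% of all regions. One of the 3 is the site at 837 bp, which entered the fit through RES-A libraries alone, so its call and the count are no support. None was lower, beside 17.3%. In the 1-Mb flanks 95 of 208 regions were higher in RES-A and 8 lower. The 13.8-kb site differed by -0.24 (limma adjusted p = 0.318), and by -0.41 without the 2 shallow libraries (0.000666), the 1 window region lower in RES-A in that fit, beside 22.9% of all regions.

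By pileup, 4 of 6 window regions were higher in RES-A, beside 29.6% of all regions. They were the -6.9-kb site (1.61-fold, limma adjusted p = 2.13e-05), the promoter (1.55-fold, 7.58e-06), the 18.4-kb site (1.35-fold, 3.95e-06) and the 22.5-kb site (1.51-fold, 1.92e-06). The enhancer pair was not among them, with 0.12 at 12.7 kb (-0.04 to 0.28, limma adjusted p = 0.2) and -0.03 at 13.8 kb (-0.22 to 0.16, 0.8). In the 1-Mb flanks 32 of 34 regions were higher in RES-A, with a median difference of 0.48. The local background was higher in RES-A at all 6 window regions, beside 51.6% of all regions. A shift of the whole neighbourhood cannot be told apart from a change of the promoter or gene body here, and a copy-number difference was not measured.

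A site 7.5 kb inside the gene, beside the strong -6.9-kb one, read lower with DHT in RES-A. It did not pass the threshold in the fit of all 24 libraries. Its fold enrichment was 6.58, 5.66 and 5.86 with DMSO and 3.36 and 3.08 in DHT replicates 2 and 3, with no peak in DHT replicate 1, which was set to the lowest value of that library in the fit. The ENZ libraries had 6.71, 5.83 and 5.29, and those given both agents 4.57, 4.75 and 5.42, all above the DHT libraries. The log2 difference of DHT from DMSO was -1.20 (SE 0.343), with a limma adjusted p of 0.0528. Leaving out 1 library at a time gave -1.41 to -0.82 (limma adjusted p = 0.00752 to 0.315). It passed in 4 of these 24 fits. Without the 2 shallow LNCaP libraries it was -1.25 (0.00547), and the difference of DHT+ENZ from DHT was 1.06 (0.0392). In LNCaP the same site read 4.47, 4.30 and 3.89 with DMSO and 4.04, 3.62 and 3.36 with DHT. The difference between the sublines did not pass (-1.33, limma adjusted p = 0.366). Without the shallow libraries 2.14% of all regions were lower with DHT in RES-A, and 0.749% were higher with DHT+ENZ than with DHT.

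The ranks of the peaks were compared as well. Among the 50000 peaks of each list with the highest −log10 p, 10 window regions appeared. The -1.3-kb site was top-ranked in 12 of 12 RES-A and 1 of 12 parental libraries (Fisher's exact test, two-sided, p = 9.61e-06, adjusted p = 7.84e-05). The -7.5-kb site was top-ranked in 8 and 0 libraries (Fisher's exact p = 0.00135, adjusted p = 0.00395), with 3, 0, 3 and 2 of 3 RES-A libraries under DMSO, DHT, ENZ and DHT+ENZ. Both of them, of the 4 window regions in 6 to 18 libraries, stand beside 31.6% of all such regions that were more often called in RES-A. The 13.8-kb site was top-ranked in 1 of 3 RES-A DMSO libraries and in all 3 with DHT, ENZ and DHT+ENZ.

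In a stricter count, of regions top-ranked in all 3 libraries of one group and in none of the other, the window had 1 lower with DHT in RES-A, the -7.5-kb site, beside 3.4% of all regions. RES-A against LNCaP gave 2 higher under DMSO (8.14% of regions) and 1 under DHT (7.29%). Libraries given ENZ had 2 (7.56%) and those given both agents 0 (8.38%). DHT in LNCaP gave none, beside 2.15% of regions higher and 1.73% lower.

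Across the genome, the regions whose fold enrichment followed the 12.7-kb site most closely over 23 libraries had Pearson r of 0.71 to 0.73, out of 44961 compared. They were chr7:32805291-32805853, chr11:118223698-118224195, chr20:47521564-47521918, chr14:104811070-104811545 and chr1:232680212-232680639. All points of these correlations share libraries and depth. The regions were picked as the highest of 44961, and whether r this high arises without any link was not tested. Within the window the other 5 regions had r of -0.27 to 0.22 with the 12.7-kb site.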

How the data were processed

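FAIRE-seq libraries, 3 biological replicates per group by the study's methods, were sequenced as 50-bp single-end reads. The authors aligned them to hg19 with bwa 0.7.8-r455, marked duplicates with Picard 1.118 and called peaks per library with MACS2 2.1.0, per the submitters' processing notes; its options and any control library were not given in the sources used here. The deposited lists hold for each peak its pileup (a signal, unscaled between libraries), fold enrichment (a ratio over the expected pileup) and −log10 p- and q-values.

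Peaks overlapping by 1 bp were merged into regions, and the highest peak of a library stood for it. Groups came from titles and characteristics. Quantile-normalized log2 values were tested with limma 3.58.1 (R 4.3.3) over all 24 libraries, on regions with a peak in each, or in at least 3. Local background was taken as (pileup + 1) / fold − 1, which assumes that 1 was added to both, and the genome-wide background as its minimum in the library. The log2 ratio of local to genome-wide background was tested over 23 libraries without normalization between libraries. The limma step was tested on simulated data. Permutation and Fisher's tests used SciPy 1.17.1. Since peak calling uses each library's own depth, shallow libraries miss weak sites.

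Regions named are the window's recurrent sites, those past a threshold, and the 5 regions most like the 12.7-kb site, over 23 libraries as 1 list lacks it. Members and lists were chosen with earlier results of these data known. Pileup, local background, the 23-library fits and the peaks-per-library test were added after seeing the data. Alternatives were median centring, the libraries of a contrast alone, other regions, q at or under 0.01, a 100-bp overlap, −log10 p, 25000 or all peaks, the replicate block, and leaving out the shallow or each single library. Same-numbered libraries were not treated as pairs in the main fits. The correlation of their deviations ran from -0.13 to 0.26 within sublines and exceeded 0.1 in 8 of 36 pairs. Between sublines it ran from -0.06 to 0.09 and exceeded 0.1 in 0 of 48 pairs, so some pairing within a subline may exist. Depth is known only by rank, and no interval for counting error is given.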

Additional observations from a re-analysis of the deposited data

How the results depend on the processing

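The choice of measure moved the results most, and the cause was not tested. With fold enrichment 0 window regions passed in any contrast over regions called in every library. By pileup over 23 libraries the counts were 2 for DHT in LNCaP, 3 for DHT in RES-A, 1 for DHT+ENZ against DHT in LNCaP and 1 for DHT+ENZ against DMSO in RES-A. Over 24 libraries, in regions called in each, pileup gave 1 for DHT in RES-A and 1 for DHT+ENZ against DHT in LNCaP. Local background over 23 libraries gave 4 for DHT in RES-A. RES-A against LNCaP over the treatments gave 3 by −log10 p, 3 by pileup, 4 by pileup over 23 libraries, 6 by local background, 1 by fold over 23 libraries, 3 over regions in at least 3 libraries and 2 without the shallow libraries. These counts take both directions together. By pileup over 23 libraries and by local background all were higher in RES-A. The 1 by fold over 23 libraries was the 13.8-kb site, lower in RES-A (-0.31, limma adjusted p = 0.0011). Within DMSO the counts were 2 by either pileup, 3 by local background, 1 by fold over 23 libraries, 2 over regions in at least 3 libraries and 1 without the shallow libraries. The 1 by fold over 23 libraries was again the 13.8-kb site, lower in RES-A (-0.45, limma adjusted p = 0.0316). Within DHT they were 2 by either pileup and 6 by local background. Within ENZ they were 1 by −log10 p, 3 and 4 by pileup over 24 and 23 libraries and 5 by local background. Within DHT+ENZ they were 1 by −log10 p, 1 without the shallow libraries, 2 and 3 by pileup and 6 by local background. In the 307955 regions of at least 3 libraries, 20 in the window, pileup gave 1 higher and 1 lower for DHT in RES-A, 1 lower in LNCaP and 1 higher in RES-A for DHT+ENZ against DHT, and 1 higher for ENZ in RES-A. Between the sublines it gave 10 over the treatments, 2 under DMSO, 6 under DHT, 8 under ENZ and 4 under DHT+ENZ, all higher in RES-A, some of them sites that entered through RES-A alone. Such calls were common across the genome. Over the treatments 29.6% of all regions were higher in RES-A by pileup over 23 libraries and 51.6% by local background. The counts of this paragraph show how calls moved with the measure and are no support for a change particular to the window.

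The 12.7-kb site passed for DHT by pileup (0.63 in LNCaP, 0.66 in RES-A) and local background (0.85 in RES-A), and between the sublines by local background (0.38). The subline difference of the promoter turned from -0.05 to 0.50 by −log10 p, 0.66 and 0.63 by pileup over 24 and 23 libraries and 0.97 by local background, and that at 13.8 kb from -0.24 to 0.59 by local background. By pileup the DHT rise in LNCaP lost its call at 12.7 kb in the libraries of the contrast alone (0.49), and at 13.8 kb there (0.43), with median centring (0.44) and over 22 libraries (0.52). The LNCaP count of 2 became 0, 1 and 1 in these alternatives, and that of 1 for DHT+ENZ against DHT became 0 in all 3.

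Among top-ranked peaks, the count of regions in all libraries of one group and none of the other fell to 0 for DHT in RES-A and rose to 1 for ENZ in RES-A with all peaks or with q at or under 0.01. For DHT+ENZ against DMSO it rose to 1 with 25000 peaks in LNCaP, and to 1 with 25000 peaks, all peaks or the stricter q in RES-A. Between the sublines it was 1 under DMSO with 25000 peaks and 0 with all peaks or the stricter q, 0 under DHT with each of these, 1 under ENZ with all peaks or the stricter q, and 1 under DHT+ENZ with 25000 peaks. Fisher's test then called 1 region with 25000 peaks.

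Leaving out 1 library at a time gave 0 to 1 window regions between the sublines over the treatments, under DMSO and under DHT. For top-ranked peaks the ranges were 1 to 2 for DHT in RES-A, 0 to 1 for the other RES-A treatment contrasts, 0 to 2 between the sublines under DHT+ENZ, and 2 to 3 under DMSO and by Fisher's test. By pileup they were 0 to 3 for DHT in LNCaP, 2 to 3 in RES-A, 0 to 2 for DHT+ENZ against DHT in LNCaP, 0 to 1 for DHT+ENZ against DMSO in RES-A and 4 to 6 between the sublines. The pileup difference of DHT in LNCaP ranged from 0.49 to 0.72 at 12.7 kb and 0.39 to 0.61 at 13.8 kb, and that of DHT+ENZ against DMSO in RES-A at 13.8 kb from 0.62 to 0.86. The subline difference in fold at 13.8 kb ranged from -0.41 to -0.14. The replicate block, with labels that share only a number, changed no call by fold enrichment. On that scale 0 window regions passed in every treatment contrast, with 0.19 and 0.11 for DHT at 12.7 kb in LNCaP and RES-A. By pileup the block kept the 18.4-kb calls for DHT in RES-A (limma adjusted p = 0.0273) and for DHT+ENZ against DHT in LNCaP (0.0284).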

Other observations

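The site at 27.6 kb (chr21:42907508-42907716) was called in 4 libraries, all parental, at fold enrichments of 2.54 to 3.01. The site 5.9 kb inside the gene (chr21:42873965-42874175) was called in 5 RES-A libraries at 2.18 to 2.62.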
